A study of Mus musculus with 16 samples.

Results

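The 44 genes described here are components of the Hippo pathway and genes named as targets of its effector YAP. They were taken from a list of gene symbols, and all 44 were found both among the 24722 genes of the glomerular table and among the 34264 genes of the renal cortex table. By role, 12 are kinases and their direct partners, 10 are scaffolds and upstream inputs, 8 are transcriptional effectors and 14 are target genes. RNA-seq libraries had been made from isolated glomeruli, the filtering units of the kidney, and from renal cortex, which is mostly tubules. There were 16 libraries in 4 groups of 4, all from wild-type mice aged 24 weeks and all labelled as batch 1: diabetic glomeruli, control glomeruli, diabetic cortex and control cortex. Diabetes had been induced by HFD/STZ, in this field a high-fat diet with streptozotocin, which kills pancreatic beta cells, so that diet, toxin and the diabetic state cannot be told apart. The study's title places Hippo signalling in podocyte injury in diabetic kidney disease.

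In the Hippo pathway, the MST kinases with their partner SAV1 phosphorylate and activate the LATS kinases, which with MOB1 phosphorylate the coactivators YAP and TAZ and so keep them out of the nucleus. When the kinases are less active, YAP and TAZ enter the nucleus, bind the TEAD transcription factors and raise the transcription of genes of adhesion, cytoskeleton and growth. Scaffolds at cell junctions, among them Merlin, the KIBRA proteins and the angiomotins, set how much of this signalling takes place. In the glomerulus, YAP is known for its role in podocytes, the cells that wrap the capillaries with interdigitating foot processes. Much of the pathway's control is by phosphorylation and location of the proteins, which mRNA levels do not show.

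Diabetic glomerular libraries held between 36339294 and 40696477 counts, against 40001932 to 41876031 for the controls. Diabetic cortex libraries held between 60628981 and 72352656 counts, against 57473100 to 69947387 for the controls. Glomerular diabetic libraries 1 and 4 had a chi-square per gene of 6.69 between them, against 66.2 to 97.9 for the other diabetic pairs, and control libraries 3 and 4 had 2.76, against 45.7 to 84.4. Both pairs differed far less than the others, so the counts of each pair were added up and treated as 1 sample, giving 3 diabetic and 3 control glomerular samples (1+4, 2 and 3, and 1, 2 and 3+4). In cortex, control library 4 stood apart from the other control libraries, with a chi-square per gene of 77.7 to 96.2 against 18.4 to 28.4 among the other 3. The labels do not say that libraries came from separate animals, so the p-values reflect only how far these samples differ among themselves, and that spread can be technical. Podocyte markers, summed over 12 genes, reached 2679 to 4946 CPM (counts scaled to library size) in diabetic glomeruli and 5363 to 6728 CPM in control glomeruli, against 467 to 512 CPM in diabetic cortex and 498 to 532 CPM in control cortex. In bulk tissue, fewer cells of a type and less RNA per cell cannot be told apart.

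More of these genes were called in glomeruli than in cortex. With edgeR's quasi-likelihood test and a Benjamini-Hochberg adjusted p under 0.05 over all genes, 5 of the 44 genes were higher in diabetic than in control glomeruli, where 19.4% of the 15238 genes tested were called higher. A further 19 were lower, where 18.2% of genes tested were called lower, and 20 were not called. The median log2 fold change (diabetic over control) of the 44 was -0.26, beside 0.01 over all genes tested. In 27 of the 44 the diabetic and control samples did not overlap, beside 54.2% of genes tested. In cortex 43 of the 44 could be tested, of which 3 were higher (10.8% of 19228 genes tested) and 6 were lower (9.29%), with a median of -0.07, beside -0.00 over all genes. The groups did not overlap in 10 of the 43, beside 24.9% of genes tested. So 19 of 44 genes lower in glomeruli stands above the share of all genes, 5 of 44 higher stands below it, and the cortical counts are near the shares of all genes. Without diabetic sample 1+4 the glomerular count of lower genes was 12 in place of 19. Over all genes tested it was 1728 of 15424 in place of 2767 of 15238.

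Of the 24 genes called in glomeruli and the 9 called in cortex, 4 were called in both tissues, which is 16.7% of the glomerular and 44.4% of the cortical calls. They were Lats2 and Asap1, lower in both, Myof, higher in both, and Amot, higher in glomeruli and lower in cortex. Over all genes tested, 19.4% were called higher and 18.2% lower in glomeruli. In cortex the shares were 10.8% and 9.29%. The share of all genes called in both tissues was not counted, so whether the overlap of the calls stands out cannot be told from those shares. A further 15 of the 44 were called in neither. Scaling matters for the balance of directions: with library totals in place of TMM factors, the median of all glomerular genes moved to 0.20, all-gene calls split into 4390 higher and 1661 lower in place of 2950 and 2767, and the 44 genes split into 9 higher and 14 lower in place of 5 and 19. The calls that library totals ended were those of Taok2, Map4k4, Tead1, Rbms3 and Asap1, the genes called higher that it added were Stk4, Mob1b, Tead4 and Nt5e, and no called gene changed direction. DESeq2 added Tead4 to the higher and Mob1a and Wwc2 to the lower genes. All fold changes below use TMM factors.

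**Figure D1:**
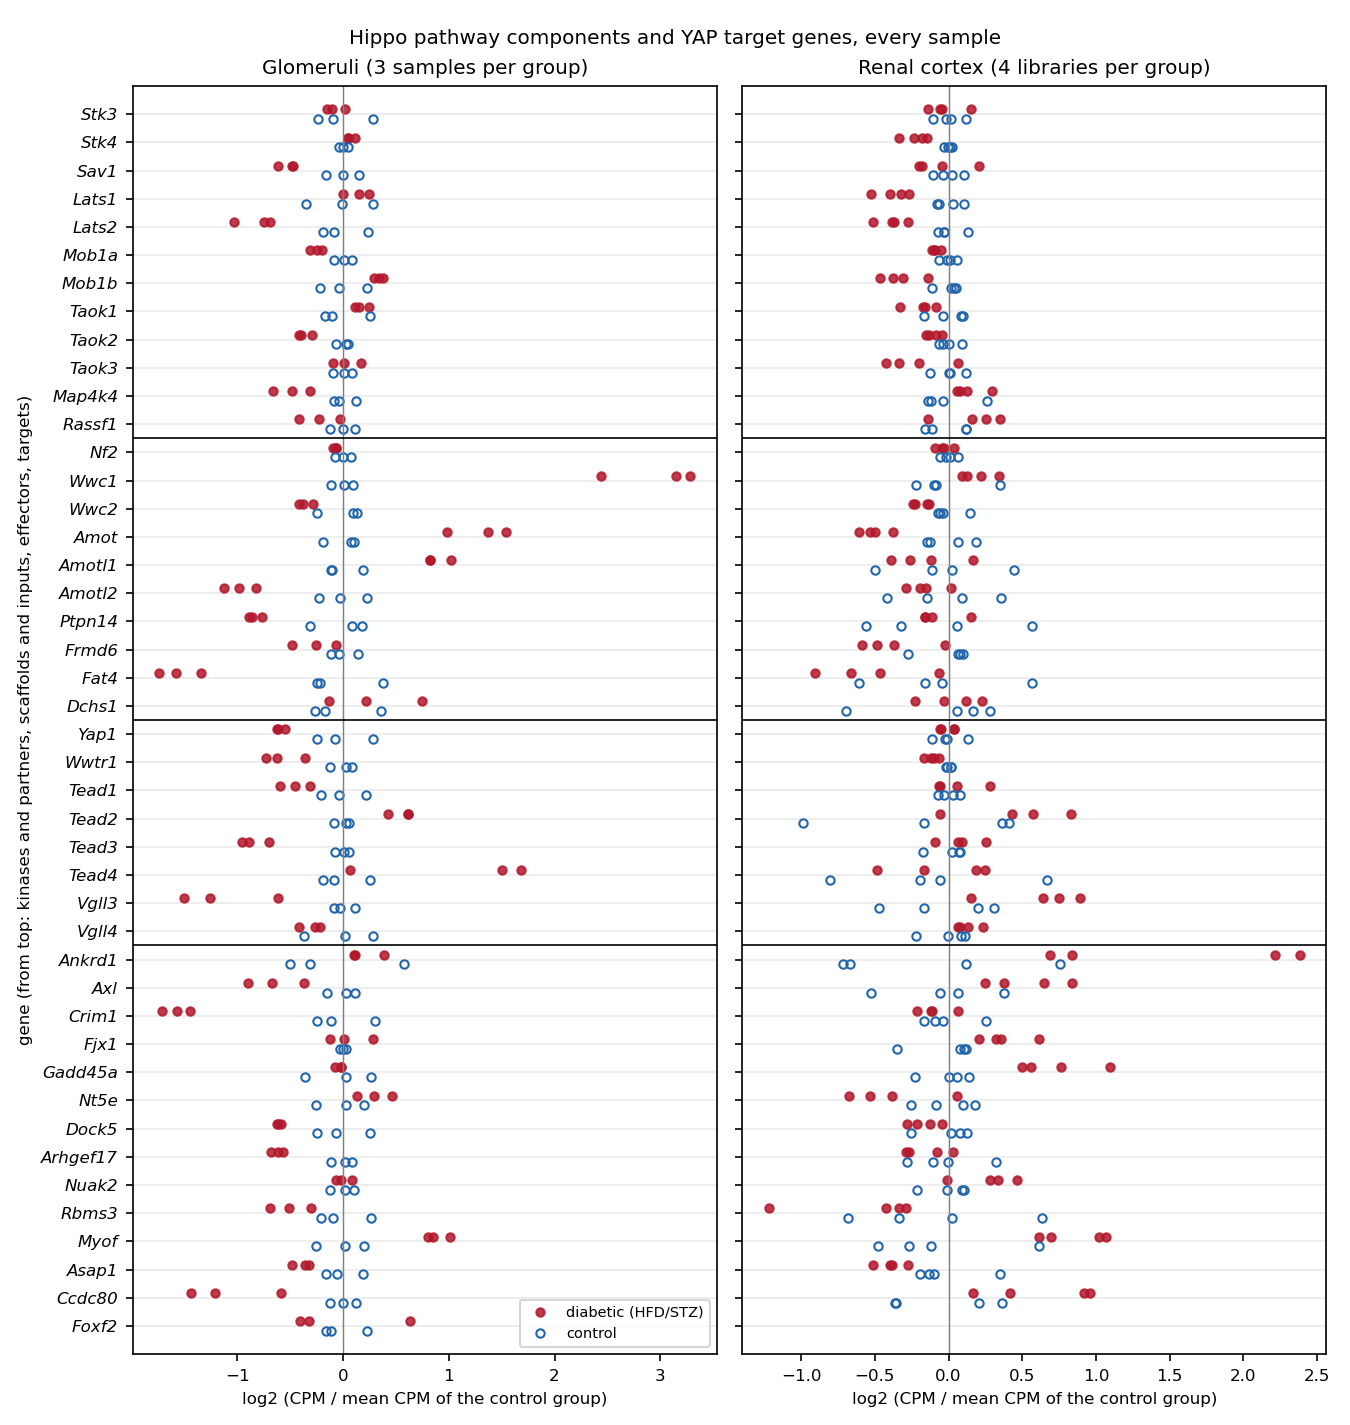
Each of the 44 genes in every sample, as log2 of its CPM over the mean CPM of the control group of the same tissue, with glomeruli (3 samples per group) on the left and cortex (4 libraries per group) on the right. Filled red points are diabetic and open blue points are control; Foxf2 has no points in cortex because it had counts in 1 library there. Wwc1 stands farthest to the right in glomeruli, and Crim1 and Fat4 farthest to the left.

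Promoter sequence was looked at first, because TEAD factors, through which YAP and TAZ act, bind a short element whose core is GGAATG. RefSeq promoter windows on GRCm38.p6, 250 bases before to 50 after a start site, were matched by symbol for 33 of the 44 genes. The 6 letters GGAATG, on either strand, were in a window of 14 of these 33 genes (42.4%). In the promoter table they were in a window of 4481 of 27025 genes (16.6%). That count leaves out the windows of 1 chromosome, on which none of the 44 genes lies. Among genes lower in diabetic glomeruli, 10 of the 13 with a window held the motif (76.9%): Sav1, Lats2, Amotl2, Ptpn14, Yap1, Wwtr1, Tead3, Vgll3, Axl and Crim1. Among the 5 genes higher there (Wwc1, Amot, Amotl1, Tead2 and Myof) none did, and 4 of the 15 not called did (26.7%). Over all genes tested in glomeruli that had such a window, the shares were 16.6% of the genes called higher, 17.1% of those called lower and 13.6% of those not called. The same chromosome is left out of these shares. None of 5 genes cannot be told apart from a share of 16.6%. By the cortical calls the split was another. The motif was held by 1 of 5 lower genes (20%), 1 of 3 higher genes (33.3%) and 12 of 24 genes not called (50%).

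These counts are a description: the split was made after the calls were known, several of the 44 genes were listed as YAP and TEAD targets to begin with, and a match of 6 letters is not a binding site. The windows below show genes that fell in diabetic glomeruli and hold the motif (Yap1, Amotl2, Vgll3 and Crim1), the gene that rose most and does not hold it (Wwc1), and a classical target that holds it in 2 places and was called in cortex (Ankrd1). Capitals mark GGAATG, or its reverse complement CATTCC, and positions count from the start site, with negative numbers upstream. Each window is read in the direction of its gene, 5′ to 3′: Yap1 at chr9:8004547-8004846 on the minus strand, motif from position -141, Amotl2 at chr9:102717554-102717853 on the plus strand, position -65, Vgll3 at chr16:65814939-65815238 on the plus strand, position -63, Crim1 at chr17:78199998-78200297 on the plus strand, position -79, Wwc1 at chr11:35980478-35980777 on the minus strand, and Ankrd1 at chr19:36119795-36120094 on the minus strand, positions -210 and -123.
Yap1: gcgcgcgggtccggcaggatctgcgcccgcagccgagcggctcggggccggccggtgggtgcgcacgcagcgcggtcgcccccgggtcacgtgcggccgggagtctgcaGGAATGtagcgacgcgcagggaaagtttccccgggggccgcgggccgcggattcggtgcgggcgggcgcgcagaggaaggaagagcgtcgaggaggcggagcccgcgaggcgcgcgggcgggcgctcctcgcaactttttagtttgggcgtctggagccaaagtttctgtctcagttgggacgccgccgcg
Amotl2: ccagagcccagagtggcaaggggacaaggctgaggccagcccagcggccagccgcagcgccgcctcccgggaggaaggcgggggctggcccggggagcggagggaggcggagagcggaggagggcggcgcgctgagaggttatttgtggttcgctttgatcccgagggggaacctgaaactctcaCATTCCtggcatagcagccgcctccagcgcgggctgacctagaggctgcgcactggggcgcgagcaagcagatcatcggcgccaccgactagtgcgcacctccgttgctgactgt
Vgll3: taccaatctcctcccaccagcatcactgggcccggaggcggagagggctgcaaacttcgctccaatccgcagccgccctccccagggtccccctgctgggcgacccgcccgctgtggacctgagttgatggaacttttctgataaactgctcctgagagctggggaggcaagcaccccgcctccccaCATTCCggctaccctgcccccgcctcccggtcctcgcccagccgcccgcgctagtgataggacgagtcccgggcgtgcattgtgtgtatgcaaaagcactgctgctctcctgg
Crim1: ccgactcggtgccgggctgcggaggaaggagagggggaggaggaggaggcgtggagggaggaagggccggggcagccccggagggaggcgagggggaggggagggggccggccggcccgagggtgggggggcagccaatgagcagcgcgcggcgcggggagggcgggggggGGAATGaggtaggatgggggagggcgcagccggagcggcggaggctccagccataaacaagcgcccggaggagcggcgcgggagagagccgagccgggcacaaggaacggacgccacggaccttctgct
Wwc1: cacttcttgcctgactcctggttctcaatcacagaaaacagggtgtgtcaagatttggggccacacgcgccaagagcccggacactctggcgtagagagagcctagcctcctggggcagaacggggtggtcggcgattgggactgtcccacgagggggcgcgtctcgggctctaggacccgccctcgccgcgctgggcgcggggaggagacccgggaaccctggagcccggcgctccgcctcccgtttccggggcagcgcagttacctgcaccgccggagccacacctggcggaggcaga
Ankrd1: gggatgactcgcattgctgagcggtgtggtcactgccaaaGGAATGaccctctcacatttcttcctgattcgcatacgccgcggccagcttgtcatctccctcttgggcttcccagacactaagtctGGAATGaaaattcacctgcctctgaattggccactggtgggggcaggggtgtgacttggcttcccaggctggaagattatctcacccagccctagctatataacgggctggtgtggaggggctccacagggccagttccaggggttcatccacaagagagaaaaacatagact

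**Figure D2:**
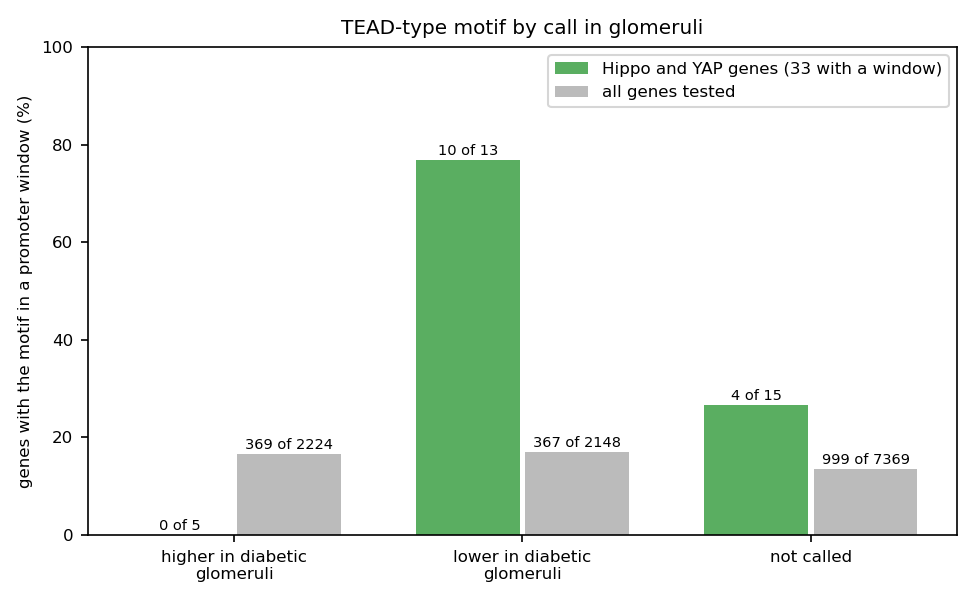
Percent of genes with GGAATG or its reverse complement in a RefSeq promoter window, by the glomerular call, for the Hippo and YAP genes with a window (green) and for all genes tested with a window (grey). The 10 of 13 genes among those lower in diabetic glomeruli stand above the 17.1% of all genes called lower. None of the 5 higher genes holds the motif, which is too few genes to set apart from the 16.6% of all genes called higher.

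Among the kinases and their partners, 4 of 12 fell in diabetic glomeruli and none rose, beside 18.2% and 19.4% of all genes tested. Lats2, which phosphorylates YAP and TAZ, had 188, 195 and 155 CPM in diabetic samples 1+4, 2 and 3, against 373, 277 and 297 CPM in control samples 1, 2 and 3+4, the order kept for every glomerular gene below. Its log2 fold change was -0.82 ± 0.15 (SE), with an adjusted p of 0.00634, and the groups did not overlap. Its paralog Lats1 had 90.8, 101 and 108 CPM in diabetic samples and 71.5, 90.2 and 111 CPM in control samples. Those ranges overlap, and the log2 difference of 0.13 ± 0.17 was not called (adjusted p = 0.563). So Lats2 fell in the same samples in which a fall of Lats1 was not detected; the difference between the paralogs was not tested.

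Sav1, the scaffold that joins MST to LATS, had 75.2, 82.5 and 82.6 CPM in diabetic samples, against 128, 103 and 115 CPM in control samples. It fell by 0.53 ± 0.10 on the log2 scale (adjusted p = 0.00792), with no overlap. Taok2, a kinase that activates MST, had 83.2, 76.6 and 77.6 CPM in diabetic samples, against 105, 104 and 97.1 CPM in control samples. Its log2 fold change of -0.37 ± 0.08 (adjusted p = 0.0109) is a small fall with little spread in either group. Map4k4, which phosphorylates LATS in parallel to MST, had 346, 392 and 442 CPM in diabetic samples and 532, 595 and 516 CPM in control samples (log2 fold change -0.48 ± 0.12, adjusted p = 0.0215). With library totals neither Taok2 (adjusted p = 0.104) nor Map4k4 (0.0744) was called, nor was either with limma on FPKM (0.106 for Taok2 and 0.0653 for Map4k4 with log2(FPKM + 1)), and Map4k4 also lost its call without diabetic sample 1+4 (0.0714), diabetic sample 2 (0.0735) or control sample 2 (0.0572).

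The other 7 kinases and partners, apart from Lats1, were not called in glomeruli. The MST kinases themselves had log2 fold changes of -0.08 ± 0.14 for Stk3 (MST2) and 0.07 ± 0.07 for Stk4 (MST1). The LATS coactivators differed in sign, with -0.25 ± 0.08 for Mob1a (adjusted p = 0.0514) and 0.34 ± 0.12 for Mob1b (adjusted p = 0.0733), and neither overlapped between groups. Stk4 and Mob1b were called higher with library totals and with FPKM values, and Mob1a was called lower by DESeq2. Taok1 (0.17 ± 0.13), Taok3 (0.03 ± 0.10) and Rassf1, a scaffold that binds MST (-0.21 ± 0.12), had ranges that overlapped between diabetic and control samples.

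In cortex 4 of the 12 kinases and partners fell and none rose, beside 9.29% and 10.8% of all genes tested. The genes were mostly others than in glomeruli. Lats1 had 44, 36.8, 40.1 and 42.3 CPM in diabetic cortex libraries 1 to 4, against 50.5, 54.0, 50 and 57 CPM in control libraries 1 to 4. It fell by 0.37 ± 0.07 on the log2 scale (adjusted p = 0.00583), with every diabetic library below every control library. Lats2 had 36.8, 37.2, 39.7 and 33.7 CPM in diabetic cortex and 47.0, 45.7, 47.0 and 52.8 CPM in control cortex (log2 fold change -0.39 ± 0.07, adjusted p = 0.00458). Both LATS genes thus fell by about the same amount in cortex, and both calls held without any single library. Mob1b had 73.9, 59.1, 65.8 and 62.6 CPM in diabetic cortex, against 83.7, 82.5, 75.3 and 84.2 CPM in control cortex (log2 fold change -0.32 ± 0.07, adjusted p = 0.0151). Stk4 had 25.3, 28.8, 28.2 and 27.1 CPM in diabetic cortex, against 31.2, 32.4, 32.1 and 31.8 CPM in control cortex (log2 fold change -0.22 ± 0.06, adjusted p = 0.0286). No diabetic library of Stk4 reached the lowest control, but the difference is small and its call was lost in 6 of the 8 fits that left out 1 library: without diabetic library 1 (adjusted p = 0.0602), 3 (0.0539) or 4 (0.0732), or control library 1 (0.0562), 2 (0.0676) or 3 (0.0649). Stk4 was not called with library totals (0.147), with no filter on low counts (0.0591) or with log2(FPKM + 1) (0.146), Mob1b was not called with log2(FPKM + 1) (0.0506), and Lats2 was not called with FPKM and no filter (0.0798).

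For 7 of the 12 the change itself differed between tissues, tested as glomerular minus cortical log2 change in a single model of the 4 groups. In that test 18.8% of 16486 genes had a higher and 16.2% a lower value in glomeruli at an adjusted p under 0.05. The glomerular change was the higher for Stk4 (0.29 ± 0.08), Lats1 (0.51 ± 0.18, adjusted p = 0.0406) and Mob1b (0.66 ± 0.15, adjusted p = 0.0039). It was the lower for Sav1 (-0.48 ± 0.15), Lats2 (-0.43 ± 0.15, adjusted p = 0.0461), Taok2 (-0.26 ± 0.09) and Map4k4 (-0.61 ± 0.15, adjusted p = 0.00747). The values for Lats1, Lats2 and Taok2 lost their call when single samples were left out (11, 9 and 8 of 14 fits, with adjusted p up to 0.108, 0.134 and 0.0868), and Sav1 did so without control glomerular sample 1 (0.0599). With library totals none of the 4 negative differences was called, with adjusted p of 0.0706 for Sav1, 0.242 for Lats2, 0.48 for Taok2 and 0.0608 for Map4k4, and Lats1 was not called with no filter on low counts (0.057).

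The scaffolds moved in opposite directions, with 3 of 10 higher and 3 lower in diabetic glomeruli, beside 19.4% and 18.2% of all genes tested. Wwc1 encodes KIBRA, which binds Merlin and LATS, and lies at chr11:35838400-35980527 on the minus strand of GRCm38. It had 316, 347 and 193 CPM in diabetic glomeruli, against 38.1, 35.9 and 32.9 CPM in control glomeruli. The lowest diabetic sample was far above the highest control sample, and the fold change was 8.01 (log2 3.00 ± 0.23, adjusted p = 0.000548). Amot, the angiomotin that holds YAP at junctions and on actin, lies at chrX:145446425-145505181. It had 129, 145 and 98.5 CPM in diabetic and 43.8, 52.5 and 53.5 CPM in control glomeruli, a fold change of 2.49 (log2 1.31 ± 0.16, adjusted p = 0.00181). Its paralog Amotl1 had 288, 331 and 288 CPM in diabetic and 151, 186 and 152 CPM in control glomeruli (log2 fold change 0.89 ± 0.12, adjusted p = 0.00218).

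The third angiomotin, Amotl2, went the other way: it had 416, 465 and 375 CPM in diabetic glomeruli, against 960, 701 and 803 CPM in control glomeruli. Its log2 fold change was -0.97 ± 0.15 (adjusted p = 0.00349), with no overlap. Amotl2 is itself known as a gene that YAP and TEAD activate. Ptpn14, a phosphatase that binds YAP and keeps it in the cytoplasm, had 224, 243 and 229 CPM in diabetic and 470, 335 and 440 CPM in control glomeruli (log2 fold change -0.84 ± 0.14, adjusted p = 0.00458). Fat4, a giant cadherin whose fly counterpart Fat is a receptor upstream of Hippo, had 10.0, 8.99 and 11.8 CPM in diabetic and 25.7, 25.2 and 39.0 CPM in control glomeruli (log2 fold change -1.55 ± 0.21, adjusted p = 0.00238). The diabetic samples of Ptpn14 and Fat4 lay close together, and most of the spread was among the controls. All 6 scaffold calls held when any 1 sample was left out.

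The other 4 members of the group were not called: Wwc2 (-0.36 ± 0.12, adjusted p = 0.0565), Merlin itself (Nf2, -0.07 ± 0.08), Frmd6, related to the fly junction protein Expanded (-0.26 ± 0.13), and Dchs1, the ligand of Fat4 (0.33 ± 0.27). Nf2 had 109, 109 and 107 CPM in diabetic and 120, 108 and 114 CPM in control glomeruli.

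In cortex 1 scaffold was called, where 10.8% of all genes tested were called higher and 9.29% lower. Amot fell there, with 31.0, 33.7, 30.3 and 28.8 CPM in diabetic libraries, against 49.8, 39.6, 45.7 and 40.1 CPM in control libraries (log2 fold change -0.50 ± 0.09, adjusted p = 0.00363). No diabetic library reached the lowest control. Wwc1 in cortex had 197 to 235 CPM in diabetic and 159 to 236 CPM in control libraries (log2 fold change 0.20 ± 0.12, adjusted p = 0.284). The glomerular changes of Wwc1 (difference 2.81 ± 0.25, adjusted p = 3.85e-06), Amot (1.82 ± 0.18, 8.15e-06) and Amotl1 (1.04 ± 0.25, 0.00684) were higher than the cortical changes by the test of the difference. Those of Amotl2 (-0.82 ± 0.23, 0.014) and Fat4 (-1.05 ± 0.38, 0.047) were lower. The Fat4 difference lost its call in 10 of 14 fits without 1 sample (adjusted p up to 0.139). With library totals neither that of Amotl2 (0.0568) nor that of Fat4 (0.107) was called, and with diabetic glomerular library 2 alone that of Amotl2 was not called either (0.117).

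Among the effectors, 5 of 8 fell and 1 rose in diabetic glomeruli, beside 18.2% and 19.4% of all genes tested. Yap1, at chr9:7931999-8004596 on the minus strand, had 181, 182 and 191 CPM in diabetic glomeruli, against 339, 265 and 235 CPM in control glomeruli. The log2 fold change was -0.60 ± 0.14 (adjusted p = 0.017), and every diabetic sample was below every control sample. Wwtr1, which encodes TAZ, had 175, 188 and 226 CPM in diabetic and 307, 266 and 296 CPM in control glomeruli (log2 fold change -0.56 ± 0.12, adjusted p = 0.0123). The fall of the coactivators was thus of similar size, and the share of Yap1 in their summed FPKM (fragments scaled by transcript length and library size) was 50.3 ± 2.64% in diabetic and 50.5 ± 4.20% in control glomeruli (SD, n = 3 each). Yap1 was no longer called without diabetic sample 1+4 (log2 fold change -0.55, adjusted p = 0.0544), whereas Wwtr1 was called in each such fit, at 0.0497 in the weakest. With FPKM and no filter neither was called (0.0861 for Yap1 and 0.0539 for Wwtr1).

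The TEAD factors, which carry YAP and TAZ to DNA, did not move together. Tead3 had 27.0, 28.3 and 32.2 CPM in diabetic glomeruli, against 54.6, 52.8 and 49.8 CPM in control glomeruli (log2 fold change -0.85 ± 0.09, adjusted p = 0.00129). Tead1 had 231, 254 and 280 CPM in diabetic and 301, 340 and 405 CPM in control glomeruli (log2 fold change -0.45 ± 0.14, adjusted p = 0.0383). Tead2 had 66.5, 75.7 and 75.7 CPM in diabetic and 51.2, 50.5 and 46.6 CPM in control glomeruli (log2 fold change 0.56 ± 0.09, adjusted p = 0.00396). Within each of these 3 genes the groups did not overlap, so Tead1 and Tead3 fell where Tead2 rose. Tead4 had 12.1, 13.7 and 4.46 CPM in diabetic and 5.08, 4.02 and 3.73 CPM in control glomeruli, and was not called (log2 fold change 1.24 ± 0.41, adjusted p = 0.0538). Diabetic sample 3 lay among its controls while the other 2 were above every control.

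The Tead1 call was lost in 5 of 6 fits without 1 sample: without diabetic sample 1+4 (adjusted p = 0.161), 2 (0.126) or 3 (0.0608), or control sample 2 (0.0686) or 3+4 (0.0959). It was also lost with library totals (0.161) and with log2(FPKM + 1) (0.169).

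Vgll3 and Vgll4 encode cofactors that bind TEAD in place of YAP. Vgll3 fell, with 113, 134 and 209 CPM in diabetic glomeruli, against 302, 347 and 314 CPM in control glomeruli (log2 fold change -1.08 ± 0.23, adjusted p = 0.0119). Its diabetic samples were spread, sample 3 being the highest, but stayed below the controls. Vgll4, with 58.6 to 67.0 CPM in diabetic and 60.6 to 94.8 CPM in control glomeruli, was not called (log2 fold change -0.30 ± 0.16).

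No effector was called in cortex, by the adjusted p of edgeR's test. Yap1 had 76.7, 81.6, 81.6 and 76.4 CPM in diabetic cortex, against 78.0, 78.8, 87.2 and 73.6 CPM in control cortex (log2 fold change -0.01 ± 0.06, adjusted p = 0.963). Wwtr1 had 65.0, 66.9, 68.0 and 69.6 CPM in diabetic and 71.9, 72.2, 73.6 and 73.6 CPM in control cortex; the libraries did not overlap, but the difference of -0.11 ± 0.05 was not called (adjusted p = 0.128). The glomerular change was lower than the cortical change for Yap1 (difference -0.59 ± 0.14, adjusted p = 0.00685), Wwtr1 (-0.45 ± 0.12, 0.0113), Tead1 (-0.51 ± 0.16, 0.0247), Tead3 (-0.92 ± 0.13, 0.000199) and Vgll3 (-1.70 ± 0.32, 0.00146). Vgll3 in cortex had 3.84 to 6.41 CPM in diabetic and 2.50 to 4.28 CPM in control libraries (log2 fold change 0.63 ± 0.22, adjusted p = 0.0646), so the tissues had opposite signs; DESeq2 called Vgll3 higher in cortex. The difference for Tead1 was not called without diabetic glomerular sample 1+4 or 2 or control glomerular sample 3+4 (adjusted p up to 0.064), and with library totals it and that of Wwtr1 were not called.

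**Figure D3:**
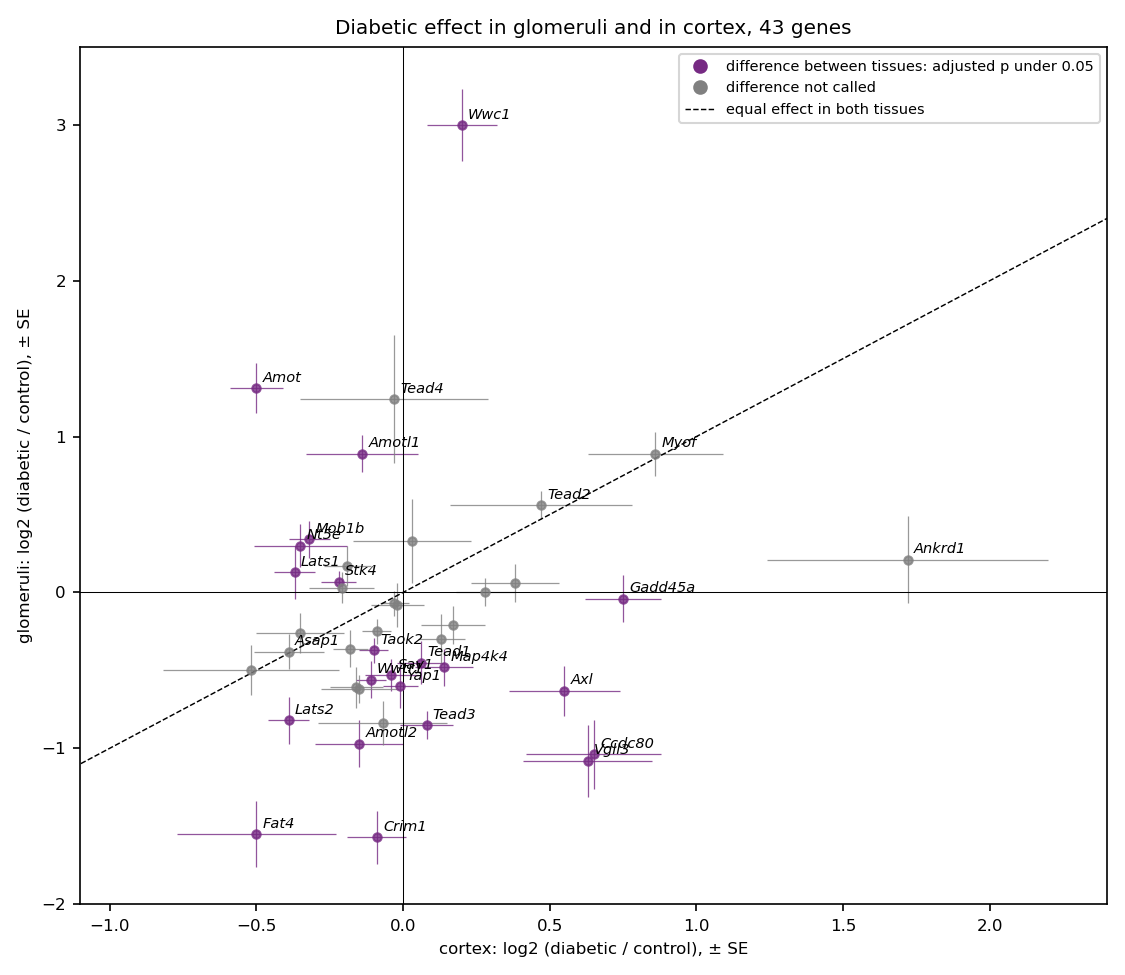
The log2 fold change (diabetic over control) with its SE of 43 genes in glomeruli (vertical axis) against that in cortex (horizontal axis). Purple marks the genes whose change differed between tissues at an adjusted p under 0.05, grey the others, and the dashed line equal change; Wwc1 and Amot lie far above the line, Crim1, Vgll3 and Ccdc80 far below it, and Myof on it.

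The targets were named as such largely from cultured human cells. Of the 14, 7 fell and 1 rose in diabetic glomeruli, beside 18.2% and 19.4% of all genes tested, and 6 were not called. Crim1, a membrane protein that binds growth factors of the BMP family and had, with Axl, the highest FPKM of the 44 in control glomeruli, lies at chr17:78200248-78376592. It had 403, 445 and 485 CPM in diabetic glomeruli, against 1223, 1117 and 1630 CPM in control glomeruli, a fall to a fold of 0.336 (log2 -1.57 ± 0.17, adjusted p = 0.00116). Ccdc80, a secreted matrix protein, had 125, 147 and 226 CPM in diabetic and 312, 369 and 339 CPM in control glomeruli (log2 fold change -1.04 ± 0.22, adjusted p = 0.0126). As with Vgll3, diabetic sample 3 was the highest of the diabetic samples and still below the controls. Axl, a receptor tyrosine kinase, had 601, 701 and 868 CPM in diabetic and 1212, 1144 and 1007 CPM in control glomeruli (log2 fold change -0.63 ± 0.16, adjusted p = 0.0211). Its call was lost without diabetic sample 1+4 (0.0555) or 2 (0.0707) or control sample 1 (0.0656), and with FPKM and no filter (0.0699).

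Arhgef17 and Dock5, both regulators of the actin skeleton, fell by similar amounts. Arhgef17 had 274, 283 and 262 CPM in diabetic and 445, 390 and 427 CPM in control glomeruli (log2 fold change -0.62 ± 0.09, adjusted p = 0.00289). Dock5 had 137, 140 and 136 CPM in diabetic and 200, 177 and 251 CPM in control glomeruli (log2 fold change -0.61 ± 0.13, adjusted p = 0.0131, and 0.0604 without diabetic sample 1+4 or 0.0575 with log2(FPKM + 1)). The diabetic samples of both genes agreed closely. Rbms3, an RNA-binding protein, had 40.8, 46.2 and 53.6 CPM in diabetic and 57.3, 62.0 and 79.1 CPM in control glomeruli (log2 fold change -0.50 ± 0.16, adjusted p = 0.044). Asap1, which regulates Arf GTPases at adhesion sites, had 86.5, 96.8 and 94.2 CPM in diabetic and 108, 116 and 138 CPM in control glomeruli (log2 fold change -0.38 ± 0.11, adjusted p = 0.0326). These 2 calls rest on little: each was lost in 5 of 6 fits without 1 sample, all but that without control sample 1, with adjusted p from 0.0519 to 0.175 for Rbms3 and from 0.0544 to 0.152 for Asap1, and with library totals (0.152 for Rbms3 and 0.208 for Asap1).

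Myof, a ferlin of membrane repair, was the target that rose: it had 599, 691 and 621 CPM in diabetic glomeruli, against 288, 348 and 394 CPM in control glomeruli (fold change 1.85, log2 0.89 ± 0.14, adjusted p = 0.00357). The call held without any single sample. Ankrd1, a muscle ankyrin-repeat protein and a standard readout of YAP activity, had 258, 312 and 255 CPM in diabetic and 168, 354 and 191 CPM in control glomeruli. The diabetic values lay inside the control range, and the log2 difference of 0.21 ± 0.28 was not called (adjusted p = 0.591). The other targets not called were Gadd45a, a stress-inducible growth-arrest gene (-0.04 ± 0.15), Nuak2, an AMPK-related kinase (-0.00 ± 0.09), Fjx1 (0.06 ± 0.12), Nt5e, the ectonucleotidase CD73 (0.30 ± 0.14), and the mesenchymal transcription factor Foxf2, which had 1.38 to 2.84 CPM in diabetic and 1.64 to 2.14 CPM in control glomeruli.

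In cortex 3 targets were called higher and 1 lower of 13 tested, where 10.8% of all genes were called higher and 9.29% lower. The median log2 fold change of the 13 was 0.28 in cortex, and that of the 14 was -0.21 in glomeruli. Gadd45a had 31.7, 26.4, 40.0 and 27.6 CPM in diabetic cortex, against 19.5, 20.6, 16.0 and 18.7 CPM in control cortex (log2 fold change 0.75 ± 0.13, adjusted p = 0.00469). The libraries did not overlap, and this call held without any single library. Ankrd1 had 3.00, 8.62, 9.71 and 3.32 CPM in diabetic cortex, against 1.13, 2.02, 1.17 and 3.14 CPM in control cortex (fold change 3.30, log2 1.72 ± 0.48, adjusted p = 0.035). Diabetic libraries 2 and 3 stood well above the rest, while diabetic library 1 lay below control library 4. Myof had 38, 50.3, 52.0 and 40.1 CPM in diabetic and 20.6, 17.8, 22.8 and 38 CPM in control cortex (log2 fold change 0.86 ± 0.23, adjusted p = 0.0348), with control library 4 at the level of the lowest diabetic library. Asap1 had 19.0, 17.5, 20.7 and 19.2 CPM in diabetic and 22.8, 23.4, 21.9 and 31.9 CPM in control cortex (log2 fold change -0.39 ± 0.12, adjusted p = 0.0434).

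Of the calls of Gadd45a, Ankrd1, Myof and Asap1 in cortex, only that of Gadd45a was kept in every fit without 1 library. That of Ankrd1 was lost without diabetic library 2 (adjusted p = 0.089) or 3 (0.0899) or control library 1 (0.0887), 2 (0.0803) or 3 (0.0897). Myof lost its call without diabetic library 2 (0.085), 3 (0.0883) or 4 (0.0616) or control library 1 (0.0844), 2 (0.069) or 3 (0.0852), and reached an adjusted p of 0.000528 with control library 4 left out. Asap1 lost its call in 6 of 8 such fits, without any 1 diabetic library or without control library 1 or 2 (adjusted p up to 0.117). With log2(FPKM + 1) Ankrd1 (0.0611) and Asap1 (0.161) were not called, with library totals Myof (0.0534) and Asap1 (0.118) were not, and with no filter on low counts Ankrd1 (0.0708) and Myof (0.0769) were not. With control library 4 left out, 7 of the 44 genes were called higher in diabetic cortex in place of 3. The count was 5 without diabetic library 1, and 1 without diabetic library 2 or without control library 1, 2 or 3. Over all genes tested, 2474 were called higher without control library 4 and 1931 without diabetic library 1, in place of 2069. Without diabetic library 2 or control library 1, 2 or 3 there were 1420 to 1682. Foxf2 was not tested in cortex, with 0 counts in the 4 diabetic libraries, which allows up to 0.0114 CPM over the group (3 counts, counting error only), and 8 counts in the control libraries, all in library 3.

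The glomerular change was lower than the cortical change for Axl (difference -1.17 ± 0.28, adjusted p = 0.00529), Crim1 (-1.48 ± 0.20, 0.000116), Gadd45a (-0.78 ± 0.22, 0.0138) and Ccdc80 (-1.68 ± 0.35, 0.00261), and higher for Nt5e (0.66 ± 0.23, 0.0424). The Nt5e difference lost its call in 10 of 14 fits without 1 sample (adjusted p up to 0.118). Axl and Ccdc80 were positive but not called in cortex, at 0.55 ± 0.19 (adjusted p = 0.0789) and 0.65 ± 0.23 (0.0756) on the log2 scale, and DESeq2 called both higher there. Myof (0.03 ± 0.31) and Asap1 (0.00 ± 0.18) had differences near 0, although the standard errors allow sizeable ones. For Ankrd1 the difference of -1.50 ± 0.64 was not called (adjusted p = 0.0875). Over all 44 genes, 7 differences were called higher and 15 lower in glomeruli, beside 18.8% and 16.2% of genes tested. With library totals the lower count was 7, 8 of the 22 differences lost their call, and all genes split into 4105 higher and 1847 lower in place of 3099 and 2678.

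Because FPKM divide by length, paralogs of a family can be set beside each other within a sample, and their shares do not depend on how libraries are scaled. They do depend on the gene lengths used, which differed between the tissues. Tead2 had 72.7 CPM and 32.8 FPKM in diabetic glomeruli, but 2.61 CPM and 0.505 FPKM in diabetic cortex. Shares in glomeruli and in cortex are therefore not on the same footing. Wwc1 made up 58.8 ± 7.22% of the summed Wwc1 and Wwc2 FPKM in diabetic glomeruli and 12.7 ± 1.93% in control glomeruli (SD, n = 3 each), while the sum was 111 ± 21.9 and 57.5 ± 6.66 FPKM. In cortex Wwc1 was the main paralog, at 84.5 ± 0.848% in diabetic and 80.6 ± 1.66% in control libraries (n = 4 each). Among the angiomotins, Amotl2 held 68.6 ± 0.207% of the FPKM in diabetic and 89.6 ± 2.41% in control glomeruli, Amotl1 20 ± 1.06% and 7.32 ± 1.80%, and Amot 11.4 ± 1.07% and 3.13 ± 0.686%. The sum was 134 ± 16.8 FPKM in diabetic and 176 ± 20.1 FPKM in control glomeruli.

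For the TEAD factors the sum was 74.1 ± 3.83 FPKM in diabetic and 70.3 ± 4.32 FPKM in control glomeruli. Tead2 held 44.3 ± 0.512% of it in diabetic and 28.0 ± 2.58% in control glomeruli, Tead1 37.0 ± 1.69% and 46.8 ± 5.00%, and Tead3 14.0 ± 0.835% and 23.3 ± 2.08%. Tead2 was thus the leading TEAD by FPKM in diabetic glomeruli and Tead1 in control glomeruli. The lead of Tead2 rests on the gene lengths used for glomeruli. By CPM, which does not divide by length, Tead1 (255 CPM) stood above Tead2 (72.7 CPM) in diabetic glomeruli. In cortex Tead1 led, with 60.7 ± 3.59% in diabetic and 61.9 ± 1.11% in control libraries, and Tead2 held 5.64 ± 1.66% and 4.15 ± 1.53%. Lats1 made up 30.5 ± 4.20% of the LATS sum in diabetic and 18.7 ± 5.02% in control glomeruli, against 51.4 ± 2.99% in diabetic and 51.2 ± 1.20% in control cortex. In glomeruli, the shares of Wwc1, of each angiomotin, of Tead1, Tead2 and Tead3, and of Lats1 did not overlap between groups, those of Yap1 and Tead4 did, and no test was run on the shares.

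**Figure D4:**
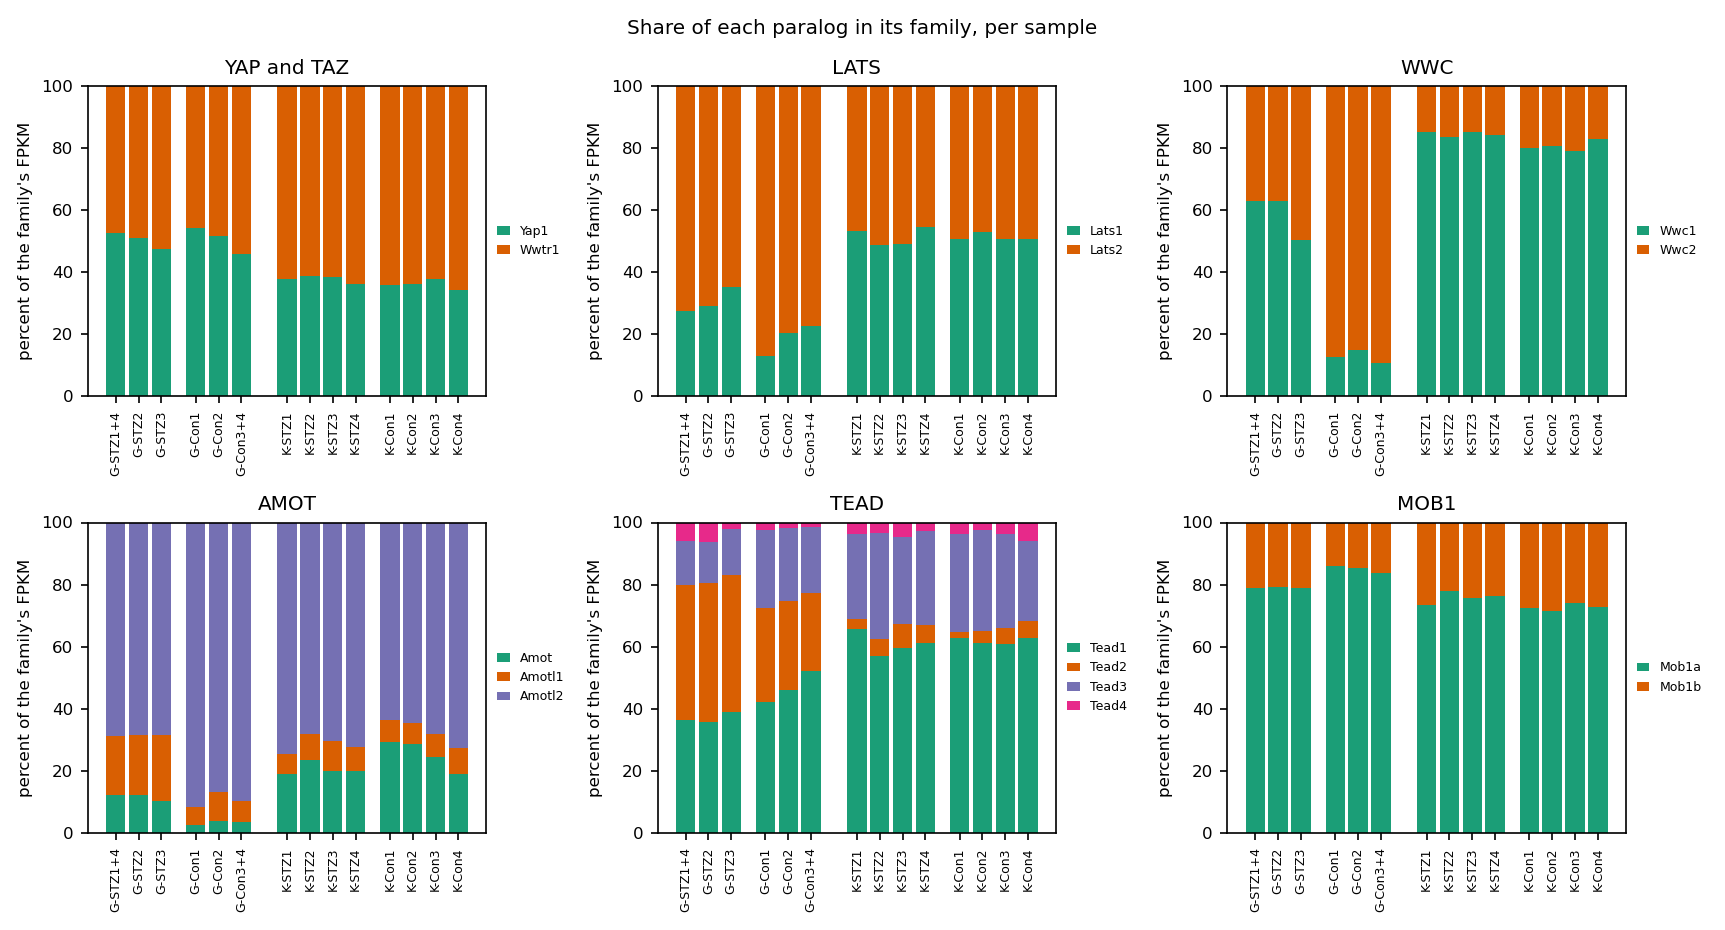
Share of each paralog in the summed FPKM of its family, for each glomerular sample (G) and each cortex library (K), diabetic (STZ) left of control (Con) within each tissue. The green Wwc1 share is 50.4 to 62.9% in the diabetic glomerular samples and far lower in their controls, and the share of Amotl2 is lower in diabetic than in control glomeruli.

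By level per length, the glomerular controls were led by Crim1 (204 ± 44.1 FPKM), Axl (193 ± 15.0), Amotl2 (158 ± 22.2), Gadd45a (127 ± 24.5) and Ankrd1 (126 ± 54.9; SD, n = 3). Axl was above Crim1 in control samples 1 and 2 and below it in sample 3+4. The values of Crim1 and Axl, and those of Gadd45a and Ankrd1, are within their spread of each other. The cortical controls were led by Wwc1 (34.3 ± 7.88 FPKM), Nuak2 (16.7 ± 2.19), Nt5e (15.0 ± 2.02) and Wwtr1 (13.9 ± 0.723; SD, n = 4), with the last 3 close together. In diabetic glomeruli Wwc1 had 66.1 ± 19.9 FPKM, against 7.23 ± 0.403 FPKM in control glomeruli, and in cortex 40.1 ± 2.89 FPKM in diabetic and 34.3 ± 7.88 FPKM in control libraries. The tables of the tissues were made separately and with different gene lengths, so levels across them were not tested.

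Markers of other cells also differed between the diabetic and control glomerular samples. Proximal tubule markers, 10 of 12 of them called higher in diabetic glomeruli, summed to 1012, 81.7 and 491 CPM in diabetic samples 1+4, 2 and 3, against 56.5, 65.0 and 52.9 CPM in control samples 1, 2 and 3+4. Distal nephron markers, 7 of 10 called higher, summed to 1841, 79.2 and 834 CPM in diabetic and 79.6, 57.4 and 62.3 CPM in control samples. Diabetic samples 1+4 and 3 thus had higher tubular marker sums than any control, and diabetic sample 2 was near the controls. Against the controls, diabetic sample 2 alone gave a log2 fold change of 3.31 ± 0.11 for Wwc1 (adjusted p = 0.00354), 1.56 ± 0.16 for Amot, 1.05 ± 0.17 for Amotl1, -1.55 ± 0.29 for Crim1, -0.87 ± 0.12 for Tead3, -0.59 ± 0.22 for Yap1 and -0.60 ± 0.14 for Wwtr1. For these genes the differences were close to those with all samples or larger. Other called genes had smaller ones, as Lats2 (-0.67 in place of -0.82) and Amotl2 (-0.79 in place of -0.97), or larger ones, as Vgll3 (-1.23 in place of -1.08). The calls of Yap1, Wwtr1 and other genes were lost. In that fit the lone diabetic sample is assumed to vary like the controls, and Tead4 had a log2 fold change of 1.71 ± 0.24.

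Markers of parietal epithelial cells, which line Bowman's capsule, summed to 2878, 3407 and 1888 CPM in diabetic glomeruli and 498, 620 and 549 CPM in control glomeruli, with 5 of 8 called higher and 1 lower. Wwc1 and Amot were highest in diabetic sample 2 and lowest in diabetic sample 3, as was this sum. That order was found in 2 of the 5 genes called higher, and its share among all genes called higher was not counted. Over the control samples neither Wwc1 nor Amot shared the order of the sum. Smooth muscle markers summed to 3474, 4081 and 6360 CPM in diabetic and 20294, 19091 and 17809 CPM in control glomeruli, with 7 of 7 called lower and a median log2 fold change of -2.19. The same markers summed to 118 to 148 CPM in diabetic and 127 to 188 CPM in control cortex, far below either glomerular group. Vgll3, Ccdc80 and Axl were lowest in diabetic sample 1+4 and highest in diabetic sample 3, as was the glomerular smooth muscle sum. That order, 1 of 6 possible ones, was found in 11 of the 19 genes called lower. How often it occurs among all genes called lower was not counted. All were measured in the same 3 diabetic samples, so the genes do not count as separate observations. Over the control samples Axl shared the order of the sum, whereas Vgll3 and Ccdc80 did not. Mesangial markers summed to 870, 806 and 780 CPM in diabetic and 1570, 1472 and 1368 CPM in control glomeruli (3 of 8 called lower), and podocyte markers to 4946, 4507 and 2679 CPM in diabetic and 6728, 5363 and 5699 CPM in control glomeruli (3 of 12 called lower). No marker of these lists was at 0 in any glomerular sample, and the part of these cells in the changes of the Hippo genes was not tested. In cortex, proximal tubule markers summed to 12124 to 14832 CPM in diabetic and 13442 to 21778 CPM in control libraries (7 of 12 called lower), and macrophage markers to 521 to 802 CPM in diabetic and 211 to 374 CPM in control libraries (7 of 8 called higher); their part in the cortical calls was not tested either.

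**Figure D5:**
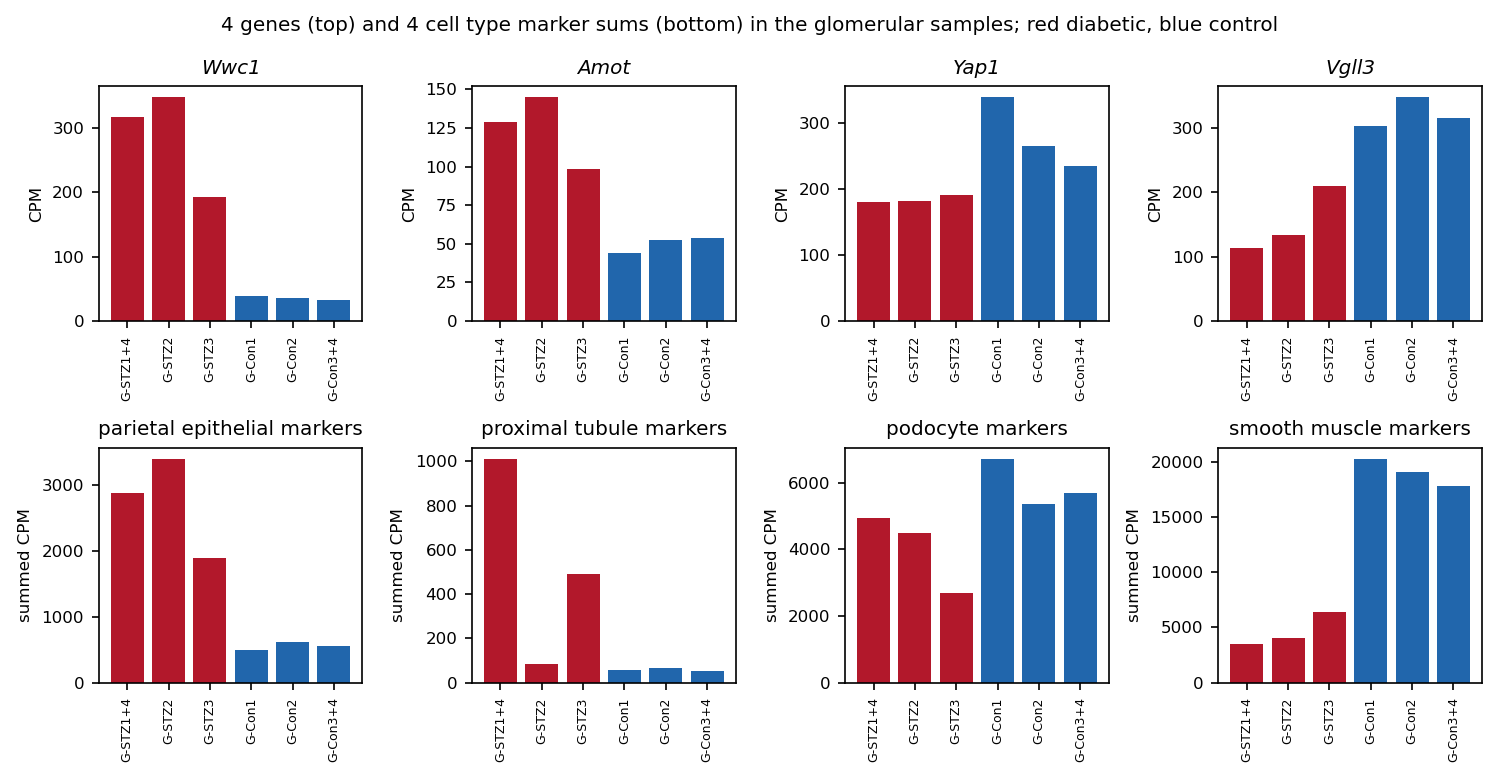
CPM of 4 genes (top row) and summed CPM of 4 marker lists (bottom row) in the glomerular samples, diabetic in red and control in blue, each axis starting at 0. Wwc1 and Amot share their order over the diabetic samples with the parietal epithelial sum, and Vgll3 with the smooth muscle sum. Over the control samples none of these genes shares the order of that sum. The proximal tubule sum is high in diabetic samples 1+4 and 3 and 81.7 CPM in sample 2.

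A wider list of 56 other Hippo genes, of which 52 were tested in glomeruli, had 11 higher and 10 lower, shares near the 19.4% and 18.2% of all genes tested, with a median log2 fold change of -0.08. The smallest adjusted p among the higher ones belonged to polarity genes of epithelia: Crb3, at 21.9 ± 6.41 CPM in diabetic and 0.403 ± 0.269 CPM in control glomeruli (log2 fold change 5.81 ± 0.49, adjusted p = 0.000669), Patj (2.35 ± 0.22, 0.000883) and Llgl2 (1.81 ± 0.27, 0.00327). Among the lower ones they belonged to Sike1, a subunit of the STRIPAK phosphatase complex that restrains MST (-0.69 ± 0.10, 0.0027), Wtip, a LIM protein that inhibits LATS (-0.65 ± 0.13, 0.00855), and Btrc, the ubiquitin ligase subunit that takes phosphorylated YAP to degradation (-0.42 ± 0.09, 0.00994). In cortex 7 of the 52 tested were higher and 8 lower, beside 10.8% and 9.29% of all genes tested there. Of 20 other YAP targets, 3 were higher and 11 lower in diabetic glomeruli, with a median log2 fold change of -0.76.

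Among these targets the smallest adjusted p of a fall belonged to Igfbp3, a binding protein of insulin-like growth factors, at 33.1 ± 3.89 CPM in diabetic and 129 ± 13.5 CPM in control glomeruli (log2 fold change -1.96 ± 0.12, adjusted p = 0.000349). Tgfb2, a growth factor of the TGF-beta family, followed (-1.38 ± 0.12, 0.000669), and Ccn2 (CTGF), the matricellular protein most used as a YAP readout, had 3541 ± 332 CPM in diabetic and 8221 ± 646 CPM in control glomeruli (-1.22 ± 0.14, 0.00137). The 3 that rose were F3, the coagulation factor tissue factor (2.92 ± 0.32, 0.00137), the EGF receptor ligand Areg (1.56 ± 0.30, 0.00768) and Ddah1, which degrades an inhibitor of nitric oxide synthase (0.70 ± 0.20, 0.0334). In cortex 5 of 18 tested were higher and 3 lower, beside 10.8% and 9.29% of all genes tested there, with a median of 0.22. As for the 44 genes, the sum of smooth muscle markers was lower in the same diabetic glomerular samples, and its part was not tested.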

How the data were processed

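Gene-level values of 16 libraries in 4 groups of 4 were used, grouped by their titles. Per the deposited tables, the authors gave counts per gene with FPKM beside them for glomeruli, named by gene symbol, and estimated counts made whole with FPKM for cortex, named by Ensembl ID. The cortical counts were taken as estimated because 4.7% of genes with 10 to 99 counts had a constant FPKM per count, against 100% in glomeruli. The build was GRCm38 (mm10), per the submitters' processing notes. The sources used here do not name the aligner, counter, annotation or strand setting, so reads of overlapping or antisense genes cannot be told apart.

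Of the glomerular symbols 19765 matched GENCODE gene names on GRCm38 directly, 295 matched by synonym and 4662 did not match (4.08% of counts). Of the cortical IDs 31953 matched and 2311 did not (0.32% of counts). The tables shared 19015 genes.

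Near-identical glomerular libraries were summed (diabetic 1 and 4, control 3 and 4). Each tissue was tested with edgeR 4.0.16 (R 4.3.3): filterByExpr, TMM factors, a quasi-likelihood test and a Benjamini-Hochberg adjusted p under 0.05 over all genes. The glomerular minus cortical change was tested as an interaction in 1 model of the 4 groups. The functions were tested on simulated data. Alternatives were library totals, RLE factors, DESeq2 1.42.0, no filter on low counts, limma 3.58.1 on log2(FPKM + 1) or log2(FPKM + 0.1) of the deposited FPKM, separate libraries, a replicate block, leaving out each sample, and diabetic glomerular library 2 alone.

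Samples with the same number did not visibly deviate together (correlations -0.10 to 0.11), so the main fits have no block. Low correlations do not exclude that such samples share an animal. All 44 genes are accounted for, with values per sample for those called in a tissue and for Yap1, Wwtr1, Lats1 and Lats2. Of 2 further lists, the 3 genes with the smallest adjusted p in each direction in glomeruli are given. The genes and lists, cell markers included, were chosen with earlier results of these data known.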

Additional observations from a re-analysis of the deposited data

Results flagged for a closer look

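The diabetic effect differed between glomeruli and cortex, by the interaction test, for 22 of the 44 genes. Over all 16486 genes tested, 18.8% had a positive and 16.2% a negative difference at an adjusted p under 0.05. The glomerular minus cortical log2 change was positive for Stk4 (0.29), Lats1 (0.51), Mob1b (0.66), Wwc1 (2.81), Amot (1.82), Amotl1 (1.04) and Nt5e (0.66). It was negative for Sav1 (-0.48), Lats2 (-0.43), Taok2 (-0.26), Map4k4 (-0.61), Amotl2 (-0.82), Fat4 (-1.05), Yap1 (-0.59), Wwtr1 (-0.45), Tead1 (-0.51), Tead3 (-0.92), Vgll3 (-1.70), Axl (-1.17), Crim1 (-1.48), Gadd45a (-0.78) and Ccdc80 (-1.68). Of these 22 calls, 15 were kept in every fit without 1 sample.

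Single cortical libraries lay far from the rest of their group, by Dixon's test, in 6 of 87 groups of 4, where chance flags about 1 in 20. In control library 4 these were Wwc2 at 136 CPM, Fjx1 at 4.75 CPM and Asap1 at 31.9 CPM. In diabetic library 3 it was Ptpn14 at 30.4 CPM. Frmd6 in control library 2 had 7.81 CPM, and Foxf2 in control library 3 had 0.117 CPM where its group was otherwise at 0.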

How the results depend on the processing

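No gene called in a tissue or in the difference changed direction under any setting run, and 17 of 24 glomerular, 5 of 9 cortical and 15 of 22 difference calls were kept in every fit without 1 sample. In glomeruli, 9 genes were called higher with library totals and 8 with log2(FPKM + 1) or log2(FPKM + 0.1), in place of 5. There were 10 called lower with FPKM and no filter, in place of 19, and 12 to 19 without 1 sample. Over all genes tested, 1352 were called lower with FPKM and no filter, in place of 2767, and 1728 to 2516 without 1 sample. In cortex, 6 were called higher by DESeq2 and 1 with no filter on low counts or with FPKM and no filter, in place of 3, and 1 to 7 without 1 library. There were 3 called lower with log2(FPKM + 1) and 2 with FPKM and no filter, in place of 6. Of the differences, 7 were called lower with library totals and 9 with diabetic library 2 alone, in place of 15. The cause of these shifts was not tested.

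In no pair of groups did every sample correlate best with its own number. Such a check cannot exclude that same-numbered glomerular and cortical libraries came from the same animal, since the tissues differ. The labels do not settle it, and the test of the difference treats the samples as independent. With the replicate block 1 cortical gene was called higher in place of 3, and the calls of Stk4 (adjusted p = 0.0742), Ankrd1 (0.0697), Myof (0.0519) and Asap1 (0.0823) were not kept. On the 8 separate glomerular libraries with the block, 7 genes were higher and 21 lower.

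Signs turned only for values that were not called. With library totals the log2 changes were 0.10 for Stk3, 0.12 for Nf2 and 0.15 for Gadd45a in glomeruli, 0.02 for Stk3, 0.01 for Nf2 and 0.04 for Yap1 in cortex, and 0.09 for Stk3 and 0.11 for Nf2 in the difference. With log2(FPKM + 1), with or without the filter, they were 0.09 for Stk3, 0.11 for Nf2 and 0.17 for Gadd45a in glomeruli, and 0.01 for Stk3, 0.01 for Nf2 and 0.03 for Yap1 in cortex. With log2(FPKM + 0.1) they were 0.12 for Stk3, 0.11 for Nf2 and 0.17 for Gadd45a in glomeruli, and 0.01 for Stk3, 0.01 for Nf2, 0.02 for Ptpn14, 0.03 for Yap1 and 0.04 for Tead4 in cortex. On 8 separate glomerular libraries Gadd45a was at 0.05 and Foxf2 at -0.01, and the differences of Rbms3 and Myof were -0.08 and -0.03. With the replicate block Gadd45a was at 0.08, Foxf2 at -0.07, the differences of Rbms3 and Myof at -0.12 and -0.07, and Tead4 in cortex at 0.05. With diabetic library 2 alone Foxf2 was at -0.29 and the difference of Rbms3 at -0.04.

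Without 1 sample, glomerular log2 changes ran from -0.20 to 0.08 for Stk3, -0.02 to 0.30 for Lats1, -0.02 to 0.11 for Taok3, -0.04 to 0.18 for Fjx1, -0.20 to 0.11 for Gadd45a and -0.34 to 0.26 for Foxf2. Cortical ones ran from -0.08 to 0.02 for Stk3, -0.27 to 0.04 for Amotl1, -0.21 to 0.18 for Ptpn14, -0.14 to 0.14 for Dchs1, -0.04 to 0.04 for Yap1, -0.02 to 0.10 for Tead1 and -0.22 to 0.29 for Tead4. Differences ran from -0.17 to 0.14 for Stk3, -0.03 to 0.22 for Frmd6, -0.07 to 0.31 for Tead2, -0.27 to 0.20 for Rbms3 and -0.25 to 0.17 for Myof. Foxf2 had at most 2.84 CPM in glomeruli.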
